A study of Mus musculus with 6 samples.

Results

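The miR-106b/93/25 cluster is a group of 3 microRNA hairpins inside Mcm7, a gene for a subunit of the helicase that unwinds DNA for replication. Its members were taken by name as both arms of each hairpin, mmu-miR-106b-5p and mmu-miR-106b-3p, mmu-miR-93-5p and mmu-miR-93-3p, and mmu-miR-25-3p and mmu-miR-25-5p, which gave 6 of the 778 mature miRNAs measured. Small RNA was sequenced from mouse primary mesangial cells, which hold the capillary loops of the kidney glomerulus together. All cells were grown in 25.5 mM glucose with 20% serum at passages 3 to 6. The Control group held 3 libraries from cells without added cytokine, and the 3 libraries of the TGF-b1 group came from cells given 10 ng/ml of transforming growth factor β1 for 72 h. The comparison asked which miRNAs this treatment changes. Nothing in the sources used here gives the strain, sex or age of the mice or says that the libraries of a group came from separate cultures, so the p-values measure only the spread between these libraries.

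A miRNA hairpin is cut from a longer transcript by Drosha and then by Dicer, which leaves a duplex of a 5p and a 3p strand. One strand is usually kept by an Argonaute protein and the other degraded, and the kept strand finds its targets mainly through its seed, bases 2 to 8. The cluster lies in the host gene Mcm7, whose promoter is driven by E2F factors in cycling cells, and it is a paralog of the cluster led by miR-17, which also holds miR-18a, miR-19a, miR-20a, miR-19b and miR-92a and is called the miR-17 cluster here. miR-106b and miR-93 are known for repressing the cell cycle inhibitor p21 (Cdkn1a), and miR-25 for repressing the proapoptotic protein Bim (Bcl2l11), so that the cluster is known to blunt growth arrest and apoptosis downstream of TGF-β. Mesangial cells answer TGF-β1 with growth arrest, hypertrophy and the deposition of matrix.

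The 6 mature sequences are shown because the seed, in capitals, sets which members and relatives may share targets. They are the RefSeq entries of GRCm38.p6, written 5′ to 3′.
mmu-miR-106b-5p: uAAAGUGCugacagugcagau
mmu-miR-93-5p: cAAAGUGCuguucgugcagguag
mmu-miR-25-3p: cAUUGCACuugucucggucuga
mmu-miR-106b-3p: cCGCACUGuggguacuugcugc
mmu-miR-93-3p: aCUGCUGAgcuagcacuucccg
mmu-miR-25-5p: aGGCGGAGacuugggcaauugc
miR-106b-5p and miR-93-5p shared the seed AAAGUGC, and miR-25-3p carried another, AUUGCAC. Of the 581 rows matched to a RefSeq mature sequence, 4 had the first seed and 5 had the seed of miR-25-3p. The seeds of miR-106b-3p, miR-93-3p and miR-25-5p were each found in 1 row, their own.

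The closest relatives in the data are shown to make plain how little separates some of them from the members.
miR-17-5p: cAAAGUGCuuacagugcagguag
miR-20a-5p: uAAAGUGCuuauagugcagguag
miR-92a-3p: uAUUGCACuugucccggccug
miR-92b-3p: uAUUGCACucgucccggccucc
Aligned over their full length with gaps allowed, miR-93-5p matched miR-17-5p at 21 of 23 bases, and miR-106b-5p matched miR-20a-5p at 18 of 21. miR-25-3p matched miR-92a-3p at 18 bases and miR-92b-3p at 16. The sources used here do not state how reads that fit several miRNAs were counted, so some reads could be split or shared between such pairs. When rows summing to 20 reads or more over the 6 libraries were compared, 16 held values identical to those of another row, and none of these was a member.

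In the NCBIM37 genome with GENCODE vM1, Mcm7 spans chr5:138605811-138613650 on the minus strand. Mir106b (chr5:138606965-138607046, 82 bp), Mir93 (chr5:138606751-138606838, 88 bp) and Mir25 (chr5:138606549-138606632, 84 bp) lie on the same strand. All 3 hairpins fall in intron 13 of Mcm7-001, a transcript of 15 exons, and that intron is 748 bp long (chr5:138606390-138607137). Read in the direction of transcription, Mir106b comes first, then Mir93 after a gap of 126 bp and Mir25 after a further 118 bp, so the cluster takes up 498 bp. The distance from the start of Mcm7 was 6604 bp for Mir106b and 7018 bp for Mir25.

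**Figure D1:**
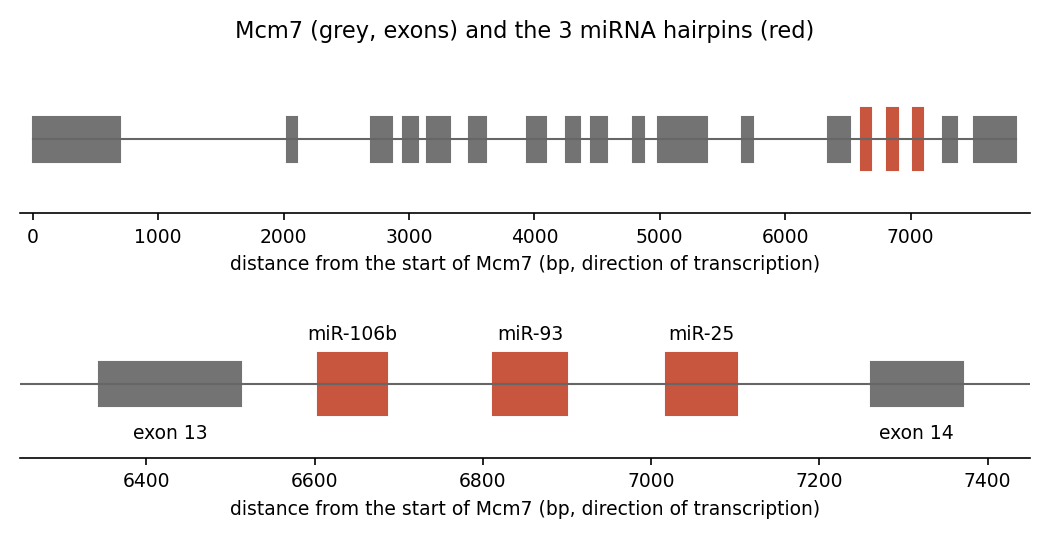
Map of the Mcm7 gene (upper panel) and of its intron 13 (lower panel), drawn in the direction of transcription with the distance from the start of Mcm7 in bp on the x axis. The 3 hairpins lie within 498 bp of the same intron.

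Levels are given in RPM, reads per 1000000 reads of the library total. Unless stated otherwise, levels, shares and ratios are means ± SD over the 3 libraries of a group, and log2 changes carry their SE. The totals were 16478281 to 17623671 reads in Control and 17086815 to 20169254 in TGF-b1, so that 1 read was worth 0.0496 to 0.0607 RPM. The 778 rows took up 79.5 to 79.8% of a Control library and 71.6 to 73.1% of a TGF-b1 library. The median log2 change of the 408 miRNAs tested was -0.17 on this scale, against -0.065 with TMM scaling (edgeR's trimmed mean of M-values) and -0.02 with median-of-ratios scaling, so each change below has to be read against that shift. The mesenchymal markers miR-143-3p, miR-145-5p, miR-199a-3p and miR-214-3p were present in every library, with a summed level of 2575 to 2946 RPM in Control and 2603 to 3066 in TGF-b1. Most of this sum was miR-143-3p, with means of 2029 RPM in Control and 2052 in TGF-b1. The others did not move together. miR-145-5p went from a mean of 127.4 to 238.6 RPM, miR-199a-3p from 601.3 to 484.0 and miR-214-3p from 8.55 to 7.17. The endothelial marker miR-126-3p was at 0 to 0.0992 RPM, and the 2 blood markers that matched, of 4, summed to at most 0.42 RPM in any library. The 7 epithelial markers summed to 315 to 329 RPM in Control and 343 to 367 in TGF-b1, nearly all of it miR-192-5p. They went in both directions. miR-192-5p went from a mean of 296.9 to 349.6 RPM and miR-194-5p from 2.29 to 3.79. miR-200a-3p went from a mean of 12.7 to 1.23 RPM, miR-200b-3p from 6.74 to 0.601 and miR-429-3p from 3.99 to 0.290. miR-200c-3p and miR-141-3p were at most 0.112 and 0.0607 RPM in any library. Of the 3 striated muscle markers, miR-206-3p stood at 3275 to 3634 RPM over the 6 libraries. The others were far lower, with miR-1a-3p at 9.17 to 11.6 RPM and miR-133a-3p at 0 to 0.182 RPM. The hepatocyte marker miR-122-5p went from a mean of 26.1 RPM in Control to 13.5 in TGF-b1, and the 2 neuronal markers summed to 2.06 to 2.40 RPM in Control and 1.40 to 1.93 in TGF-b1. The part of these marker levels in the results below was not tested, and in bulk RNA fewer cells of a type and less RNA per cell cannot be told apart.

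The cluster was present in all libraries, but its members differed in level by over 3 orders of magnitude. miR-25-3p was the most abundant, followed in Control by miR-93-5p, miR-25-5p, miR-106b-5p, miR-106b-3p and miR-93-3p. The same order was found in every TGF-b1 library except replicate 2, in which miR-25-5p at 215.5 RPM and miR-93-5p at 215.0 RPM were at nearly the same level. In Control the libraries of each member lay apart from those of the next in this order, and in TGF-b1 only miR-93-5p and miR-25-5p overlapped. With TGF-b1, miR-25-3p fell and miR-25-5p, the other strand of the same hairpin, rose. miR-106b-3p fell as well, while miR-106b-5p and miR-93-5p did not pass the threshold. Among the 5 members tested, 2 were lower and 1 was higher at an adjusted p under 0.05 (limma on log2(RPM + 1)), beside 31.9% lower and 17.4% higher (49.3% in all) among the 408 miRNAs tested. With TMM scaling 1 member was lower and 1 higher, beside 25.7% and 20.3% (46.1% in all). On the recovered reads edgeR called 2 lower and 1 higher with library totals and 1 lower and 1 higher with TMM, beside 47.5% and 45.6% of all miRNAs in either direction. Over all miRNAs tested, limma called 71 higher and 130 lower miRNAs on library totals, and 97 higher and 91 lower with median-of-ratios scaling. Under limma, edgeR and DESeq2 alike 0 of the 5 members passed an absolute log2 change of 1 as well. Of all tested miRNAs 12.3% were past both thresholds in limma. At an unadjusted p under 0.05 in limma were 4 of the 5 members, beside 228 of the 408 miRNAs tested. The median log2 change of the 5 members was -0.32, against -0.17 for all miRNAs tested.

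miR-25-3p is the guide strand of its hairpin, the strand known to repress Bim. It stood at 1467, 1304 and 1395 RPM in Control replicates 1 to 3 and at 881.5, 732.2 and 692.1 RPM in TGF-b1 replicates 1 to 3. Every TGF-b1 library was below every Control library, as was so for 36% of all miRNAs tested (56.9% did not overlap in either direction). The mean fell from 1388 ± 81.5 to 768.6 ± 99.8 RPM, a 1.81-fold lower level. The log2 change was -0.86 ± 0.10, with an adjusted p of 0.000522 in limma, and was -0.68 relative to the median of all miRNAs tested. Its fall was larger than the general shift on every scale tried, with a log2 change of -0.71 under TMM (limma adjusted p = 0.000853). Among the 79 tested miRNAs with a mean of at least 100 RPM, 13 had a lower log2 change. Its rank among all rows went from between 28 and 32 in Control to 35 or 36 in TGF-b1.

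miR-25-5p is the strand of the same duplex that is usually degraded. In Control its level was 172.9, 188.1 and 169.0 RPM, and in TGF-b1 it was 203.1, 215.5 and 228.7 RPM. The groups did not overlap, with all TGF-b1 libraries above all Control libraries, as for 20.8% of the miRNAs tested. The mean rose from 176.7 ± 10.1 to 215.8 ± 12.8 RPM, with a log2 change of 0.29 ± 0.10 (adjusted p in limma = 0.0370), which lay 0.46 above the median of all miRNAs tested. Under TMM the log2 change was 0.44 (limma adjusted p = 0.00604). On library totals the call was lost without Control replicate 1 (log2 change 0.27, limma adjusted p = 0.1004), Control replicate 3 (0.26, adjusted p = 0.105), TGF-b1 replicate 2 (0.29, adjusted p = 0.101) or TGF-b1 replicate 3 (0.24, adjusted p = 0.0997).

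miR-93-5p shares its seed with miR-106b-5p and is the main strand of the middle hairpin. Its Control libraries had 317.3, 338.0 and 265.2 RPM and its TGF-b1 libraries 273.0, 215.0 and 314.8 RPM. The groups overlapped, with TGF-b1 replicate 3 close to the first Control library. The means were 306.9 ± 37.5 and 267.6 ± 50.1 RPM, and the log2 change of -0.21 ± 0.16 did not pass the test (limma adjusted p = 0.310). With median-of-ratios scaling it was 0.0083, of the opposite sign, so no direction can be given for it.

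miR-93-3p, the other strand, was close to the limit of detection. It was counted with 10, 6 and 5 reads in Control (0.607, 0.360 and 0.284 RPM) and with 2, 5 and 5 reads in TGF-b1 (0.0992, 0.279 and 0.293 RPM). The groups overlapped, and these 33 reads were too few for the filter on low values. Tested without that filter, it had a log2 change of -0.21 ± 0.11 (limma adjusted p = 0.212). A difference between the groups was not detectable at this depth.

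miR-106b-5p and miR-106b-3p, the strands of the first hairpin, were at similar levels. miR-106b-5p had 58.3, 57.7 and 50.3 RPM in Control and 42.1, 42.6 and 47.6 RPM in TGF-b1. All TGF-b1 libraries were below all Control libraries, but the test was not passed, with means of 55.4 ± 4.47 and 44.1 ± 3.02 RPM and a log2 change of -0.32 ± 0.12 (adjusted p in limma = 0.0517). With TMM the log2 change was -0.17 (limma adjusted p = 0.209) and with median-of-ratios scaling -0.11 (adjusted p = 0.428). On library totals it passed without Control replicate 3 (log2 change -0.39, limma adjusted p = 0.0470) or without TGF-b1 replicate 3 (-0.38, adjusted p = 0.0491).

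miR-106b-3p had 38.1, 43.9 and 37.9 RPM in Control and 31.5, 30.4 and 26.7 RPM in TGF-b1. Again the groups did not overlap. The mean fell from 40.0 ± 3.39 to 29.5 ± 2.50 RPM, a log2 change of -0.42 ± 0.13 (adjusted p in limma = 0.0234). With TMM the log2 change was -0.28 and did not pass the test (limma adjusted p = 0.118). The call on library totals was lost without Control replicate 1 (log2 change -0.46, limma adjusted p = 0.0531), Control replicate 2 (-0.36, adjusted p = 0.0779), TGF-b1 replicate 2 (-0.44, adjusted p = 0.0597) or TGF-b1 replicate 3 (-0.36, adjusted p = 0.0663).

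**Figure D2:**
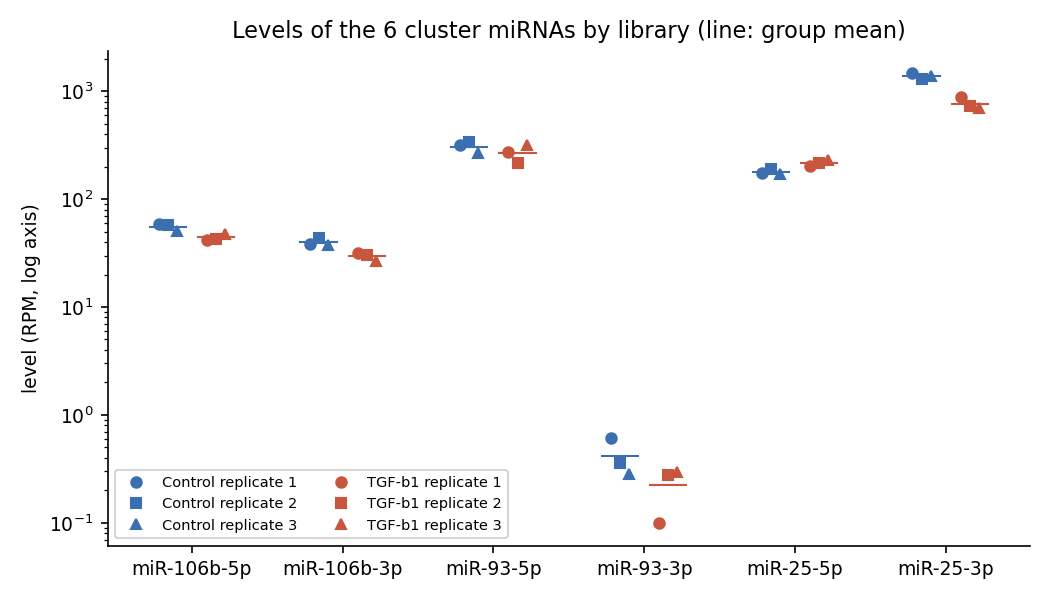
Level of each of the 6 cluster miRNAs in RPM (log axis) in the 3 Control and 3 TGF-b1 libraries, with each point 1 library and a line at the mean of each group. Both strands of miR-25 separated the groups in opposite directions, and miR-93-5p overlapped between them.

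Most reads of the cluster were miR-25-3p, and the sum over the cluster is given as a description. The 6 members together made up 2054, 1932 and 1917 RPM in Control and 1431, 1236 and 1310 RPM in TGF-b1. The mean sum went from 1968 ± 75 to 1326 ± 98.6 RPM, a ratio of 0.674. miR-25-3p made up 70.5% ± 2.73 of the cluster reads in Control and 57.9% ± 4.54 in TGF-b1. The share of miR-25-5p was 8.99% ± 0.676 in Control and 16.4% ± 1.88 in TGF-b1, and neither share overlapped between the groups. miR-93-5p held 15.6% ± 1.84 and 20.2% ± 3.45, with overlap. For each such share in a single library, the Wilson 95% interval reached at most 0.654 percentage points to either side. PCR copies of a molecule are counted as separate reads, so these intervals cover counting error alone.

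The ratio of the 2 strands of a hairpin within a library does not depend on how libraries are scaled. For miR-25 there were 8.48, 6.93 and 8.25 reads of the 3p strand per read of the 5p strand in Control, and 4.34, 3.40 and 3.03 in TGF-b1. All TGF-b1 libraries were lower than all Control libraries, a separation in either direction that 41.7% of the 84 hairpins tested showed. The mean ratio fell from 7.89 ± 0.836 to 3.59 ± 0.677, so that the 3p strand went from 88.7% ± 1.12 to 77.9% ± 3.10 of the reads of the hairpin. The log2 change of the ratio was -1.15 ± 0.24 (95% interval -1.69 to -0.60), with an adjusted p of 0.0182 in limma. The call was lost without Control replicate 1 (log2 change -1.09, limma adjusted p = 0.0701), Control replicate 2 (-1.24, adjusted p = 0.0539) or TGF-b1 replicate 2 (-1.12, adjusted p = 0.0794).

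For miR-106b the strands stayed near parity. The ratio of 3p to 5p was 0.654, 0.760 and 0.754 in Control and 0.749, 0.712 and 0.562 in TGF-b1. The groups overlapped, with means of 0.723 ± 0.0595 and 0.674 ± 0.0990. The log2 change of -0.11 ± 0.23 (95% interval -0.63 to 0.42) did not pass the test (limma adjusted p = 0.814) and had the opposite sign, 0.019, without TGF-b1 replicate 3. miR-93 had 523 to 940 reads of its 5p strand per read of its 3p strand in Control and 770 to 2753 in TGF-b1. Since each of these rests on 2 to 10 reads of miR-93-3p, the ratio was not tested.

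**Figure D3:**
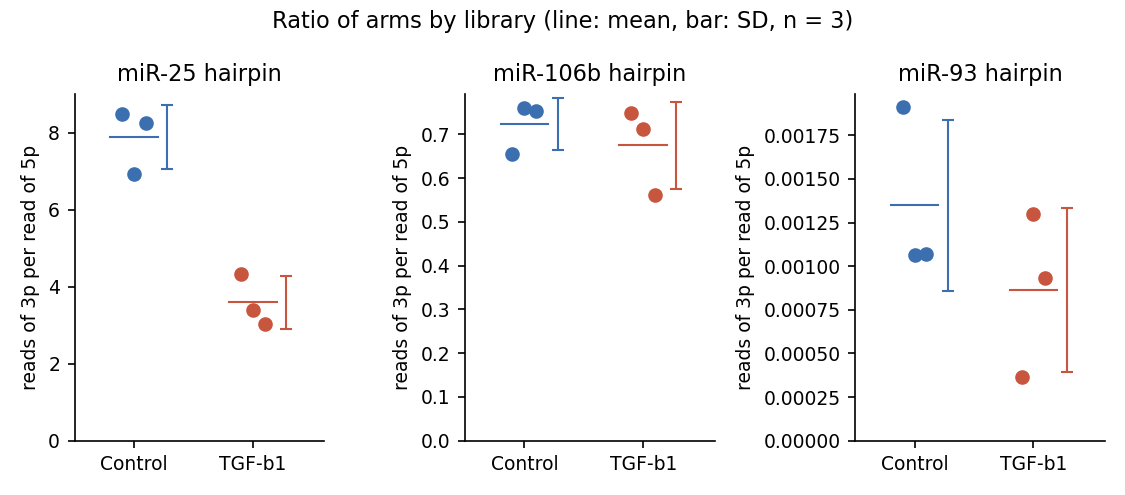
Ratio of 3p to 5p reads (linear axis) in each library for the miR-106b, miR-93 and miR-25 hairpins, in a separate panel for each hairpin. Each point is 1 library, with a line at the mean of each group and a bar for its SD. The miR-25 ratio was 6.93 to 8.48 in Control and 3.03 to 4.34 in TGF-b1, and the miR-106b ratio overlapped between the groups.

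A change in the balance of strands was found in other hairpins too. Strands were paired by matching names, so hairpins with a locus number in the name of only 1 strand were left out. Of the 84 hairpins with both strands at a mean of at least 1 RPM, 15 (17.9%) passed the test, 13 (15.5%) with a lower and 2 (2.38%) with a higher ratio of 3p to 5p in TGF-b1. miR-25 ranked 8 among the 84 by the size of its change and 4 by its p. In 2 of the 84 hairpins, miR-25 and miR-27a, one strand was called lower and the other higher, and in both the 3p strand was the lower one. Outside the 84, miR-29b-3p was called lower (log2 change -0.62, limma adjusted p = 0.00914) and miR-29b-1-5p higher (0.84, limma adjusted p = 0.00703). The count of such hairpins is therefore not complete. miR-27a and miR-29b were singled out after their values were seen.

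**Figure D4:**
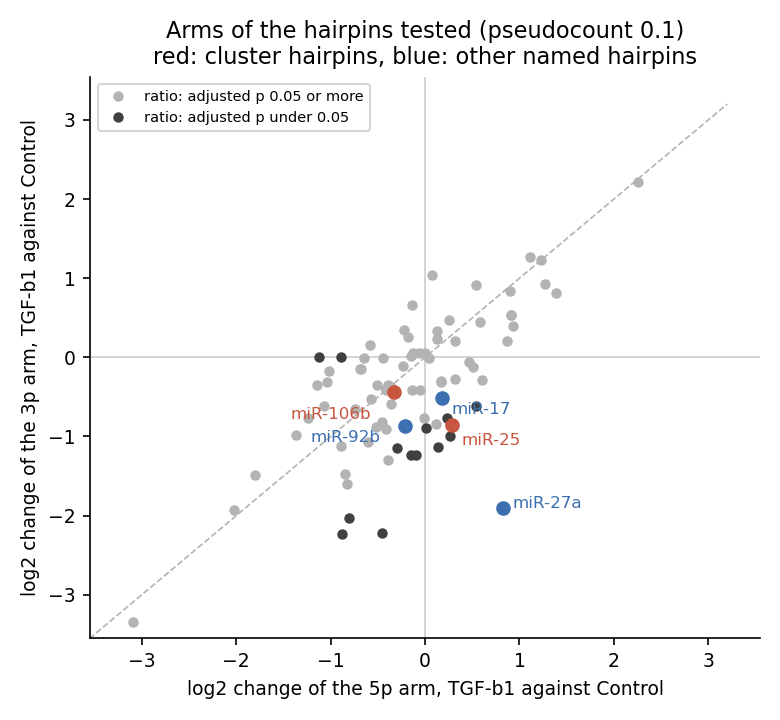
Log2 change of the 3p strand against that of the 5p strand (RPM with a pseudocount of 0.1) for the 84 hairpins tested, with each point 1 hairpin and the dashed line marking an equal change of both strands. miR-25 lies right of 0 on the x axis and below 0 on the y axis, and miR-106b lies near the dashed line.

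The ratios between the main strands of the 3 hairpins asked whether miRNAs of 1 intron moved by the same amount. There were 0.216, 0.259 and 0.190 reads of miR-93-5p per read of miR-25-3p in Control and 0.310, 0.294 and 0.455 in TGF-b1. The groups did not overlap, and the log2 ratio was higher by 0.65 in TGF-b1 (exact two-sided permutation p = 0.1, the smallest that 3 against 3 libraries can give, and 0.12 after Benjamini-Hochberg adjustment over 6 ratios). miR-106b-5p relative to miR-25-3p had mean ratios of 0.0400 ± 0.00412 and 0.0582 ± 0.0105, a log2 difference of 0.53, without overlap and with the same exact p. Between miR-106b-5p and miR-93-5p, which share a seed, the mean ratios were 0.181 ± 0.00960 and 0.168 ± 0.0264, with overlap between the groups (p = 0.4, exact permutation, two-sided). None of the 6 ratios tested, including the 3 to relatives below, passed after adjustment, and with 3 against 3 libraries none could.

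The relatives that carry the seed of miR-106b-5p and miR-93-5p belong to the miR-17 cluster. miR-17-5p averaged 28.3 ± 1.75 RPM in Control against 32.3 ± 4.94 RPM with TGF-b1, with a log2 change of 0.18 ± 0.14 (adjusted p in limma = 0.342). miR-20a-5p had 13.2 ± 2.06 and 15.2 ± 0.639 RPM, with a log2 change of 0.20 ± 0.14 (adjusted p = 0.283). Neither passed the test on library totals, and in both the groups overlapped. miR-17-5p passed with median-of-ratios scaling (log2 change 0.38, limma adjusted p = 0.0393), and on library totals its log2 change was 0.070 to 0.28 with 1 library left out. There were 10.9 ± 1.59 reads of miR-93-5p per read of miR-17-5p in Control and 8.26 ± 0.358 in TGF-b1, a log2 difference of -0.39. For miR-106b-5p to miR-20a-5p the mean ratios were 4.30 ± 0.931 and 2.90 ± 0.0937, a log2 difference of -0.54. In each of these ratios the groups did not overlap, and the exact permutation p was again 0.1, two-sided (0.12 adjusted). miR-106b-5p and miR-93-5p held 89.6% ± 1.78 of the reads with their seed in Control and 86.7% ± 0.660 in TGF-b1.

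Among the relatives of miR-25-3p, miR-92b-3p fell. It had 23.2, 22.1 and 19.3 RPM in Control and 14.1, 10.7 and 10.7 RPM in TGF-b1. The groups did not overlap, and the log2 change of -0.82 ± 0.15 (adjusted p in limma = 0.00358) was close in size to that of miR-25-3p. miR-92a-3p, made from both the miR-17 cluster and the miR-106a-363 cluster, averaged 734.5 ± 39.6 RPM in Control against 603.0 ± 94.5 RPM with TGF-b1, with overlap and a log2 change of -0.29 ± 0.12 (adjusted p = 0.0733). It passed without TGF-b1 replicate 1 (log2 change -0.41, limma adjusted p = 0.0104) and was smaller without TGF-b1 replicate 2 (-0.19, adjusted p = 0.235), with TMM (-0.14, adjusted p = 0.289) and with median-of-ratios scaling (-0.079, adjusted p = 0.586). miR-32-5p was at 3.38 ± 0.753 and 2.63 ± 0.363 RPM (log2 change -0.26 ± 0.16, adjusted p = 0.226), and miR-363-3p had 1 read in all 6 libraries together. The ratio of miR-25-3p to miR-92a-3p was 1.90 ± 0.167 in Control and 1.28 ± 0.129 in TGF-b1, without overlap (log2 difference -0.56, exact two-sided permutation p = 0.1, 0.12 adjusted). miR-25-3p held 64.6% ± 2.07 of the reads with its seed in Control and 55.5% ± 2.42 in TGF-b1, and all TGF-b1 libraries were lower.

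The paralogous miR-17 cluster was listed in 12 rows, of which 9 were tested. In it 1 miRNA was lower and 1 higher, with a median log2 change of -0.17, the same to 2 decimals as that of all miRNAs tested. The lower one was miR-18a-5p, whose mean fell from 6.24 ± 0.326 to 3.89 ± 0.384 RPM (log2 change -0.57 ± 0.13, limma adjusted p = 0.00892). Its call was lost with median-of-ratios scaling (log2 change -0.39, limma adjusted p = 0.0758) and with DESeq2 (-0.47, adjusted p = 0.201). The higher one was miR-92a-1-5p, the lesser strand of a miR-92a hairpin, which rose from 3.61 ± 0.507 to 6.03 ± 0.543 RPM (log2 change 0.61 ± 0.14, adjusted p = 0.00932). Summed, the cluster had 2.35 ± 0.114 times the reads of the miR-17 cluster in Control and 1.91 ± 0.137 times in TGF-b1, without overlap. Over all 15 rows of seed relatives and paralogous clusters, 11 were tested, 2 were lower and 1 was higher, with a median log2 change of -0.26.

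The strand ratio was tested for 2 of these relatives, both with strands at comparable levels. miR-92a was not among the hairpins tested, because its 5p row carries a locus number, so its ratio has no test here. On library totals miR-92a-3p, which is made in both clusters, had a log2 change of -0.29 (limma adjusted p = 0.0733). miR-92a-1-5p had one of 0.61 (limma adjusted p = 0.00932). For miR-17 the ratio of 3p to 5p was 1.17 ± 0.215 in Control and 0.720 ± 0.150 in TGF-b1 (log2 change -0.70 ± 0.26, limma adjusted p = 0.0909). For miR-92b it was 1.37 ± 0.0842 and 0.870 ± 0.0851 (log2 change -0.66 ± 0.22, adjusted p = 0.0704). The groups did not overlap in either ratio, with TGF-b1 the lower, but neither passed the adjusted threshold. Of 11 alternatives, miR-17 stayed short of it in 8 and miR-92b in 7, among them the replicate block (limma adjusted p = 0.145 and 0.156). Both passed with a pseudocount of 1 (limma adjusted p = 0.0475 for miR-17 and 0.0395 for miR-92b) or 10. These 2 settings called 22 and 30 of the 84 hairpins, beside 15 in the main fit. miR-92b passed with strands at a mean of at least 5 RPM (limma adjusted p = 0.0412), and without TGF-b1 replicate 1 both did, miR-17 at -0.86 and miR-92b at -0.73 (limma adjusted p = 0.0447 each). In miR-18a the ratio went the other way, from 0.0914 ± 0.0586 in Control to 0.238 ± 0.0904 in TGF-b1, with overlap. Its 3p strand had 4 to 23 reads a library and averaged under 1 RPM, so it was not tested. miR-20a and miR-32 were left untested for the same reason. Their mean ratios were 0.00822 and 0.0787 in Control and 0.00343 and 0.0128 in TGF-b1.

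**Figure D5:**
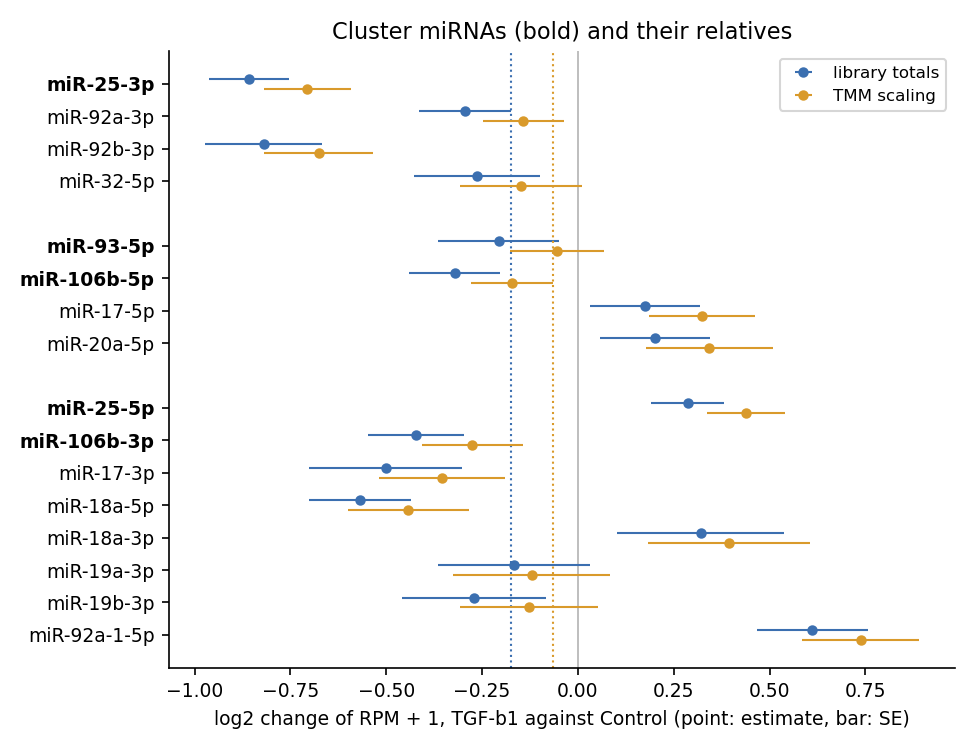
Log2 change of RPM + 1 (x axis, TGF-b1 against Control, point and SE) for the cluster miRNAs in bold and their tested relatives, on library totals (blue) and with TMM scaling (orange), with dotted lines at the median of all miRNAs tested. miR-25-3p and miR-92b-3p lie far below both medians, and miR-25-5p lies above them.

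The miRNAs whose profile over the 6 libraries was most like that of the summed cluster were found by the root mean square difference of log2 profiles centred on their means, over 403 miRNAs outside the cluster. miR-542-5p was closest, at a difference of 0.0329 on the log2 scale, followed by miR-196b-3p at 0.0595, let-7b-5p at 0.0640, miR-872-3p at 0.0741 and miR-128-3p at 0.0851. The median over the 403 miRNAs was 0.333. The log2 changes of these 5 miRNAs were between -0.64 and -0.54, beside -0.57 for the summed cluster. They were picked for a like profile, so a like change follows from the choice. The profiles of single miRNAs were taken from log2(RPM + 1), which shrinks the change of low miRNAs, and that of the summed cluster from log2(RPM). miR-542-5p averaged 2.03 ± 0.192 RPM in Control against 1.05 ± 0.0958 RPM with TGF-b1, so its closeness depends on that scale. Among the 5, let-7b-5p was by far the most abundant, with 134167 ± 2097 RPM in Control and 85880 ± 2173 in TGF-b1.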

How the data were processed

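Small RNA libraries of 3 Control and 3 TGF-b1 samples were analysed. By the study's methods and per the labels, reads were trimmed, filtered and matched to known mouse miRNAs with Bowtie. The authors deposited 1 table in a unit they call TPM, whose values behave as RPM of the library total (not length-scaled). Whole reads were recovered from it, with 100% of values whole within a tolerance of 0.002. Apart from the miRNA names, the table held only the columns of these libraries.

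Levels were tested with limma 3.58.1 in R 4.3.3 on log2(RPM + 1), with a trended prior, group as the only term and Benjamini-Hochberg adjustment over the 408 of 778 miRNAs kept by filterByExpr of edgeR 4.0.16 (minimum count 10). Fold changes on this scale understate the change of low miRNAs. The strand ratio was tested with limma on log2((3p + 0.1)/(5p + 0.1)) over 84 hairpins, paired by matching strand names. Ratios between miRNAs used exact permutation tests in scipy 1.17.1. On the recovered reads, edgeR called 194 miRNAs with library totals and 186 with TMM, and DESeq2 1.42.0 called 147, beside 201 with limma. Pairs of replicates gave a chi-square of 38.5 to 117.5 for each degree of freedom, and none was counted as a repeat of another. Members, lists, markers and alternatives were chosen with earlier results of these data known. The miRNAs named were the members, those of the lists of relatives and the 5 most like the summed cluster.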

Additional observations from a re-analysis of the deposited data

How the results depend on the processing

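miR-25-3p stayed lower and past the threshold in all 19 alternatives, with log2 changes of -0.96 to -0.64. miR-106b-3p lost its call with TMM (-0.28), median-of-ratios (-0.21), upper-quartile (-0.29) and row-sum scaling (-0.29), the replicate block (-0.42), edgeR with TMM (-0.28) and DESeq2 (-0.21), and ranged from -0.47 to -0.36 with 1 library left out. The number of members called lower was then 1 in each of these 7 alternatives, and 1 to 3 with a library left out. Over all miRNAs tested, 72 to 115 of 408 were lower in these 7 alternatives. With a library left out, 98 to 141 of 420 to 424 were lower. miR-106b-5p passed with a mean of at least 50 reads (-0.32) and with a pseudocount of 10 (-0.27), fell short by more with TMM (-0.17), median-of-ratios scaling (-0.11) and DESeq2 (-0.11), and ranged from -0.39 to -0.28 with a library left out. miR-25-5p kept its log2 change of 0.29 but not its call without a filter and with the replicate block, where limma called 0 members higher (unadjusted p of 0.0142 and 0.0383 for miR-25-5p). Over all miRNAs tested, 74 of 778 were higher without a filter and 61 of 408 with the replicate block. With a library left out miR-25-5p ranged from 0.24 to 0.33. The count of higher members was then 0 to 1, beside 62 to 67 of the 420 to 424 miRNAs tested. miR-93-5p turned to 0.0083 with median-of-ratios scaling and 0.015 with DESeq2. The summed cluster moved from a log2 ratio of -0.57 to -0.43 by row sums and -0.42 by TMM.

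The miR-25 strand ratio kept its log2 change of -1.15 but not its call with the replicate block (adjusted p = 0.0686), where 0 of 84 hairpins passed in limma, and ranged from -1.29 to -1.03 with a library left out, when 2 to 18 hairpins passed. The number of hairpins called was 22 and 30 with pseudocounts of 1 and 10, 7 of 47 at a mean of at least 5 RPM, and 13 with a prior trended on hairpin level, an alternative chosen after seeing the data. The miR-106b ratio ranged from -0.19 to 0.019 over all its alternatives. Of the relatives, 1 was lower with median-of-ratios scaling and with DESeq2, where miR-18a-5p lost its call, 2 were higher with median-of-ratios scaling, where miR-17-5p gained one, and 2 to 4 were lower with a library left out. Over all 408 miRNAs tested, 91 were lower and 97 higher with median-of-ratios scaling, and 72 were lower with DESeq2. miR-19a-3p ranged from -0.27 to 0.018 with a library left out, and from -0.52 over all its alternatives. The cause of these shifts was not tested.

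Over all miRNAs, 50 passed both thresholds in limma, 86 with a pseudocount of 0.1 or with edgeR, 17 with a pseudocount of 10 and 77 with DESeq2. No pairing by replicate number was seen: the correlations of same-numbered deviations were -0.085, -0.21 and -0.34, and 0 of 6 libraries correlated best with its own number. Deviations from a mean of 3 libraries depend on each other, so this cannot tell whether libraries of equal number were handled together. With 3 libraries a group no exact p could be below 0.1, and 2 to 10 reads a library left miR-93-3p below the filter.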
